A study of Mus musculus with 8 samples.

Results

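The 9 genes of the primitive endoderm programme studied here were followed through 4 culture conditions of mouse embryonic stem cells (ESCs). They are the transcription factors *Gata6*, *Gata4*, *Sox17*, *Sox7*, *Foxq1* and *Hnf4a* and the endocytic proteins *Cubn*, *Amn* and *Dab2*, taken by symbol from the gene tables of all samples. These 9 are among 20278 genes listed in at least 1 sample. The N33 ESC line, from C57BL/6 mice by the labels and C57BL/6J by the methods of the study, was grown with LIF and sequenced as 2 replicates per condition. In −F, ESCs grew in 20% fetal bovine serum on gelatin without feeders. In F, they grew in the same serum on mouse embryonic fibroblasts (MEFs) whose division had been stopped with mitomycin C. In F2i, serum and feeders were kept and the inhibitors known as 2i were added. In NB2i, ESCs grew in N2B27 medium with 3 µM CHIR99021 and 1 µM PD0325901, on poly-L-ornithine and laminin, with neither serum nor feeders. CHIR99021 blocks GSK3 and PD0325901 blocks MEK, the kinase that activates ERK. LIF was at 1000 U/ml in −F, F and NB2i, and doses for F2i were not given separately. By the labels, ESCs grown on feeders were separated from them by adherence, and all values come from 1 ESC line.

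Primitive endoderm is the second lineage of the inner cell mass and gives rise to the visceral and parietal endoderm of the yolk sac. FGF4 from epiblast cells acts through FGF receptors and ERK to promote this lineage, in which *Gata6* is followed by *Sox17*, *Gata4* and *Sox7*. NANOG opposes *Gata6* in the epiblast. The visceral endoderm then takes up maternal nutrients with the receptor cubilin (*Cubn*), its membrane partner amnionless (*Amn*), the receptor megalin (*Lrp2*) and the clathrin adaptor *Dab2*. *Hnf4a* is a nuclear receptor that drives the metabolic genes of visceral endoderm, and *Foxq1* is a forkhead factor. Several of these genes are also used outside this lineage, *Gata4* and *Gata6* in heart and gut and *Dab2* in many cell types.

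The genes are placed on mm10 as follows. *Gata4* is at chr14:63198922-63271692 (−), *Sox17* at chr1:4490931-4497354 (−) and *Sox7* at chr14:63943673-63950732 (+). *Foxq1* is at chr13:31556134-31560976 (+), *Hnf4a* at chr2:163506808-163572910 (+), *Cubn* at chr2:13276338-13491813 (−), *Amn* at chr12:111271095-111276426 (+) and *Dab2* at chr15:6299788-6440712 (+). All 9 are annotated as protein coding, and the values below cover each gene as a whole.

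RefSeq start sites (GRCm38.p6) were matched for 4 of the 9 genes, *Cubn*, *Amn*, *Dab2* and *Hnf4a*. The 250 bases before 1 start of each are shown, since the first 3 encode parts of 1 uptake complex and had unlike changes. *Hnf4a* is shown because it rose in F2i against F, where most of the others fell. That rise rests on few reads and is a description only. Capitals mark a GATA match, the hexamer AGATAA, in which the first base may also be T and the last G, on either strand. The windows are *Cubn* chr2:13491877-13492126 (−), *Amn* chr12:111270846-111271095 (+), *Dab2* chr15:6299539-6299788 (+) and *Hnf4a* chr2:163506607-163506856 (+), each 5′ to 3′.
Cubn: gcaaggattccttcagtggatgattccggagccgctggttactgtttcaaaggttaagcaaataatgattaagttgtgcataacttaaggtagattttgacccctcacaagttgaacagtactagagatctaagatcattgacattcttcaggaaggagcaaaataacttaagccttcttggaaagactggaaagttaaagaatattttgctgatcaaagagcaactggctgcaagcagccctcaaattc
Amn: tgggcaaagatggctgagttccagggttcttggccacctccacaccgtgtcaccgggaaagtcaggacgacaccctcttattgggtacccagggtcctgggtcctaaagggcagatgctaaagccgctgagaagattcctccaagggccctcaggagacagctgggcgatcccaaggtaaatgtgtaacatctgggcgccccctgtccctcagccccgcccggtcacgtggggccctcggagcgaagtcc
Dab2: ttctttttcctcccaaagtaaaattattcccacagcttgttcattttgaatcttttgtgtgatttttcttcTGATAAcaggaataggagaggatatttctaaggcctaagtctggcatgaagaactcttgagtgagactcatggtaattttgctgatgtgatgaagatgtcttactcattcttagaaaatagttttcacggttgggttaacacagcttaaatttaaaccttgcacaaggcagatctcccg
Hnf4a: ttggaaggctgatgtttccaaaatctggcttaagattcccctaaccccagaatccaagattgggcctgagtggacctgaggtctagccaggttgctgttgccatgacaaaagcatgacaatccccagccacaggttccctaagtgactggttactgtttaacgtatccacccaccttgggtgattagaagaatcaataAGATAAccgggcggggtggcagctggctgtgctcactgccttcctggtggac

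*Dab2* had a TGATAA from −179 to −174 and *Hnf4a* an AGATAA from −52 to −47, counted back from the first transcribed base. The windows of *Cubn* and *Amn* held no such match, nor did the second starts of *Dab2* and *Hnf4a*. Of 32851 mouse promoter windows of this length, 26.54% held a GATA match, so a match in 2 of these 6 windows is a description only. A SOX match, ACAATG or ACAAAG, stood in 25.24% of all windows and in none of the 6. The HNF4 match CAAAGTCCA stood in 0.3835% of all windows and in none of the 6.

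Total expected counts per sample lay between 20129641 and 20664488, so depth was nearly even. ESC identity was checked by *Pou5f1*, which encodes OCT4, from 569.1 to 765.1 FPKM, by *Nanog* from 198.7 to 481.7 FPKM and by *Sox2* from 215 to 265.4 FPKM over the 8 samples. FPKM divides an expected read count by transcript length and by depth. The 9 genes were far lower. Their FPKM summed to 6.95 to 8.80 in −F, 16.6 to 17.8 in F, 5.41 to 5.70 in F2i and 3.13 to 3.48 in NB2i. Genes of mature visceral endoderm were unlike one another. *Afp* did not exceed 0.02 FPKM and *Ttr* 0.04 FPKM in any sample, whereas *Apoe* and *Apoa2*, described with their list, were abundant. In bulk RNA, fewer expressing cells and less RNA per cell cannot be told apart.

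Feeder RNA differed strongly between conditions. The summed FPKM of 15 fibroblast markers was 15.3 to 15.6 in −F, 223 to 234.6 in F, 582.1 to 593.5 in F2i and 3.54 to 4.32 in NB2i. *Col1a1*, the main fibroblast collagen, stood at 2.59 and 2.47 FPKM in −F, 66.0 and 69.6 in F, 248 and 239 in F2i and 0.55 and 0.51 in NB2i. *Lum* was absent from the gene lists of −F and NB2i, and *Postn*, *Dcn* and *S100a4* from those of NB2i. Genes absent from a list were taken as 0. A library of feeders alone was not analysed here.

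*Gata6*, the factor that starts the programme, was highest on feeders. The gene lies at chr18:11052064-11085635 (+) of mm10. It measured 0.70 and 0.50 FPKM in −F, 1.98 and 1.83 in F, 0.65 and 0.67 in F2i and 0.17 and 0.12 in NB2i. Both F samples lay above all others and both NB2i samples below all others, with 8 to 11 reads each, while −F and F2i overlapped. The order was F, then F2i and −F without a difference beyond the test (log2 difference 0.20, edgeR adjusted p = 0.453), then NB2i.

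*Gata4*, which acts with *Gata6* and later maintains visceral and parietal endoderm, measured 2.11 and 1.31 FPKM in −F, 3.02 and 3.45 in F, 1.23 and 1.20 in F2i and 1.62 and 1.92 in NB2i. It was again highest in F, but unlike *Gata6* it was not lowest in NB2i. NB2i lay within the range of −F, and F2i was the lowest group. The −F replicates were 1.31 and 2.11, the widest spread of any group of this gene, with SD 0.566 FPKM against 0.0212 in F2i.

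*Sox17* and *Sox7* belong to the SOX F group, of which *Sox17* drives the endoderm programme and *Sox7* follows in parietal endoderm. *Sox17* was the second lowest of the 9, at 0.17 and 0.12 FPKM in −F, 0.22 and 0.34 in F, 0.30 and 0.28 in F2i and 0.07 and 0.09 in NB2i. These levels rest on 5 to 23 reads a sample, and F and F2i overlapped above −F and NB2i. *Sox7* measured 0.28 and 0.36 FPKM in −F, 1.02 and 1.03 in F, 0.61 and 0.34 in F2i and 0.69 and 0.58 in NB2i. Only the F samples stood apart for *Sox7*, since F2i overlapped both −F and NB2i. The expected counts of *Sox7* were not whole, as RSEM gives per gene where reads match more than 1 gene, so its level is less certain.

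*Foxq1* measured 0.60 and 0.55 FPKM in −F, 1.34 and 1.79 in F, 0.16 and 0.19 in F2i and 0.15 and 0.15 in NB2i. Both groups with 2i were near the bottom with 9 to 11 reads a sample, and no test separated them (log2 difference −0.17, SE 0.448, edgeR adjusted p = 0.760). *Hnf4a* followed another order, at 0.01 and 0.02 FPKM in −F, 0.06 and 0.11 in F, 0.21 and 0.28 in F2i and 0.14 and 0.15 in NB2i. It was highest in F2i and no 2 groups overlapped, but the whole range runs from 1 read in a −F sample to 25 in an F2i sample. *Hnf4a* passed the filter on low counts without any −F sample reaching it.

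*Cubn*, the large receptor of the uptake complex, had the largest fold change of the 9. It measured 0.45 and 0.34 FPKM in −F, 1.98 and 2.24 in F, 0.05 and 0.02 in F2i and 0.04 and 0.05 in NB2i. In reads this was 462 and 529 in F against 12 and 5 in F2i. Both F samples were highest, −F lay between, and the 2 groups with 2i overlapped near the floor.

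*Amn*, which carries cubilin to the cell surface, was not highest on feeders. It measured 2.46 and 1.70 FPKM in −F, 1.89 and 1.75 in F, 0.59 and 0.52 in F2i and 0.11 and 0.23 in NB2i. The F samples lay within the range of −F, F2i was below both, and NB2i was lowest. *Dab2*, the adaptor that links these receptors to clathrin, measured 2.02 and 2.05 FPKM in −F, 5.07 and 5.25 in F, 1.90 and 1.91 in F2i and 0.14 and 0.19 in NB2i. Its replicates were close in every group. F2i was slightly below −F in FPKM and slightly above it in fitted counts (log2 difference 0.02, edgeR adjusted p = 0.871). The cause of the turn in sign was not tested.

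**Figure D1:**
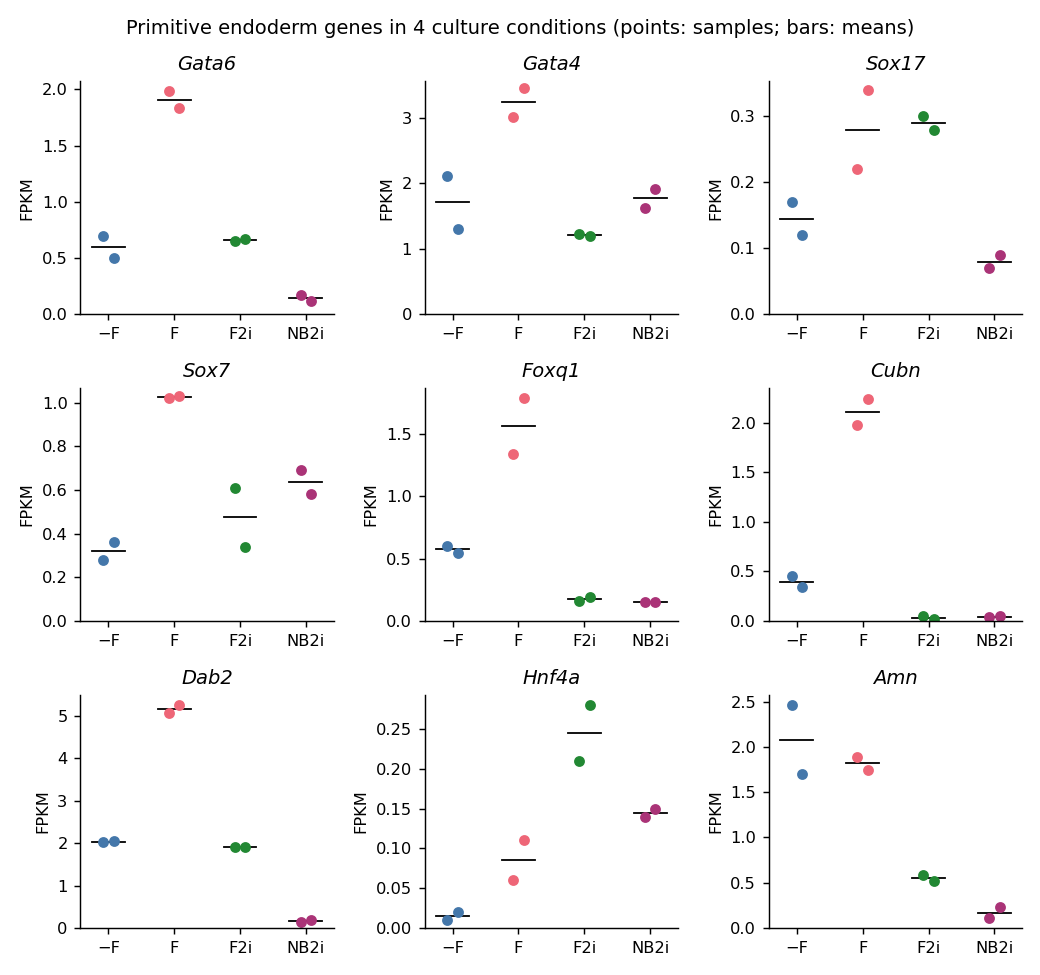
FPKM of the 9 primitive endoderm genes (y axis, its own scale for each gene, from 0) in −F, F, F2i and NB2i (x axis); points are the 2 samples of a group and bars their mean. The panels of *Gata6*, *Gata4*, *Sox7*, *Foxq1*, *Cubn* and *Dab2* have both F samples above all others, while *Amn* falls from −F to NB2i, *Sox17* is as high in F2i as in F, and *Hnf4a* peaks in F2i at 0.21 and 0.28 FPKM.

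Feeders in serum were compared with serum on gelatin first. Of the 9 genes, 7 were higher in F at an edgeR quasi-likelihood p adjusted by Benjamini and Hochberg's method under 0.05 and a fold of at least 2, and 0 were lower. Among all 15287 genes tested, 5.59% were higher and 1.65% lower by the same rule. The 7 include *Hnf4a* and *Sox17*, whose calls were lost under other settings. DESeq2 called 5 of the 9, without *Hnf4a* and *Sox17*, and 685 of the 15287 genes as higher. The median log2 fold change of the 9 was 1.46, against 2.66e-05 over all genes. *Cubn* rose 5.39-fold (log2 2.43, SE 0.127, edgeR adjusted p = 1.32e-12), *Sox7* 3.23-fold (log2 1.69, SE 0.260, edgeR adjusted p = 2.12e-05) and *Gata6* 3.21-fold (log2 1.68, SE 0.187, edgeR adjusted p = 2.79e-07). *Foxq1* rose 2.74-fold (log2 1.46, SE 0.217, edgeR adjusted p = 1.49e-05) and *Dab2* 2.51-fold (log2 1.33, SE 0.0899, edgeR adjusted p = 1.06e-10).

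The other calls were less firm. *Hnf4a* had 15 reads over both F samples and 3 over both −F samples, a ratio of 5.01 with a 95% exact counting interval from 1.42 to 27, and an edgeR adjusted p of 0.0225. That call was lost in DESeq2 (adjusted p = 0.0936), without −F replicate 1 (edgeR adjusted p = 0.128) and without F replicate 2 (edgeR adjusted p = 0.214). With only F and −F in the fit *Hnf4a* did not reach the filter, so this test rests on the reads of F2i and NB2i being there. Its place among the higher genes is therefore a description and supports nothing. *Sox17* passed at 2.02-fold with an edgeR adjusted p of 0.0496. With 11 and 8 reads in −F and 15 and 23 in F, *Sox17* met the filter in this pair through F, where it was high. It did not pass in DESeq2 (adjusted p = 0.265), with the replicate block (edgeR adjusted p = 0.0615), with DESeq2 size factors, without the filter, with only these groups in the fit, or without any 1 of the libraries other than F replicate 1, with fits from 0.68 to 1.28 on the log2 scale. *Gata4* was 1.92-fold higher (log2 0.94, SE 0.152, edgeR adjusted p = 3.95e-05), just under the fold threshold. Its log2 difference was 1.32 without −F replicate 1, 1.04 without F replicate 1 and 0.64 at the lowest when 1 library was left out. *Amn* did not pass (log2 difference −0.17, SE 0.208, edgeR adjusted p = 0.559).

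Fibroblast markers moved in this comparison too, with 14 of 15 higher in F and a median log2 change of 4.77. *Twist1* was the exception. The part of feeder RNA in the levels of the 9 genes was not tested in F against −F.

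Adding 2i on feeders was compared next. Of the 9 genes, 7 were lower in F2i than in F and 1 was higher, against 7% lower and 6.44% higher among all genes tested. The median log2 change of the 9 was −1.37, against −0.0028 over all genes. *Cubn* fell 55.5-fold (log2 −5.80, SE 0.203, edgeR adjusted p = 6.37e-16), and between −6.55 and −5.30 on the log2 scale when 1 library was left out, since F2i held 12 and 5 reads. *Foxq1* fell 8.65-fold (log2 −3.11, SE 0.279, edgeR adjusted p = 4.12e-09). *Amn* fell 3.19-fold (log2 −1.67, SE 0.270, edgeR adjusted p = 1.89e-05), *Gata6* 2.80-fold (log2 −1.49, SE 0.184, edgeR adjusted p = 5.50e-07) and *Gata4* 2.59-fold (log2 −1.37, SE 0.163, edgeR adjusted p = 3.17e-07). *Dab2* fell 2.47-fold (log2 −1.31, SE 0.0906, edgeR adjusted p = 6.14e-11). *Sox7* fell 2.10-fold (log2 −1.07, SE 0.241, edgeR adjusted p = 7.32e-04), but only to a log2 change of −0.72 without F2i replicate 2, the lower of that pair.

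With 5 and 10 reads in F, *Hnf4a* reached the filter in this pair through F2i (19 and 25 reads), where it was high. Its place as the 1 higher gene is therefore a description and supports nothing. It rose 3.00-fold in F2i against F (log2 1.59, SE 0.422, edgeR adjusted p = 0.00314). That call was lost in DESeq2 (adjusted p = 0.0541) and without F replicate 1, where the log2 change was 1.18 (edgeR adjusted p = 0.053). *Sox17* gave no call (log2 difference 0.09, SE 0.346, edgeR adjusted p = 0.854), and its sign turned without F replicate 1. The fibroblast markers went the other way from the 7 genes that fell. Of the 15, 6 were higher in F2i, 0 were lower, and the median log2 change was 0.72.

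**Figure D2:**
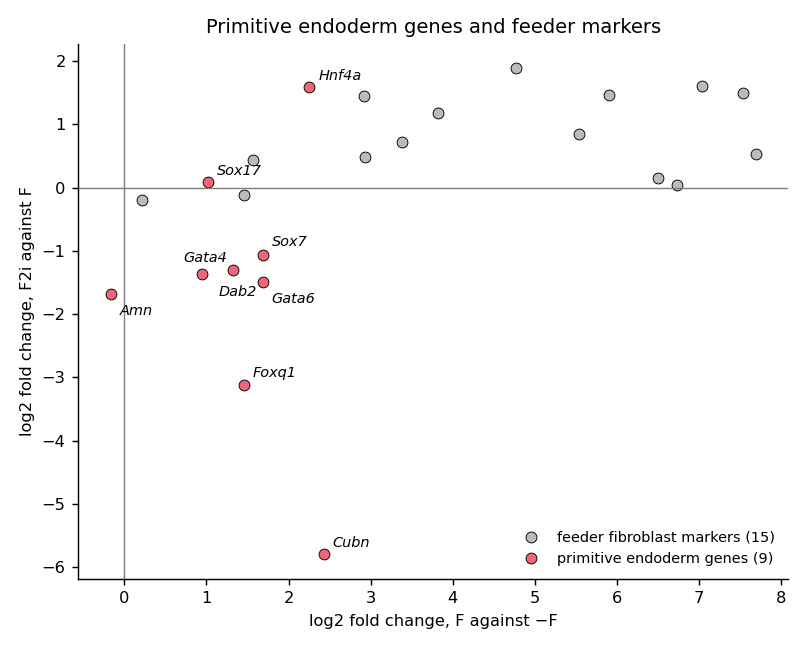
Log2 fold changes of F against −F (x axis) and F2i against F (y axis), fitted by edgeR, for the 9 primitive endoderm genes (red, named) and 15 feeder fibroblast markers (grey). Both axes use the F samples, so the placing along a falling diagonal is not read; 7 of the 9 genes lie below −1 on the y axis, where none of the 15 fibroblast markers does.

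NB2i and F2i both contain 2i and differ in serum, feeders and basal medium. Here 4 of the 9 genes were lower in NB2i and 0 higher, against 13.3% lower and 6.01% higher among all genes, with a median log2 change of −0.72 (0.02 over all genes). *Dab2* fell 12.9-fold (log2 −3.69, SE 0.183, edgeR adjusted p = 1.38e-13), *Gata6* 4.54-fold (log2 −2.18, SE 0.310, edgeR adjusted p = 2.81e-06), *Sox17* 3.54-fold (log2 −1.82, SE 0.452, edgeR adjusted p = 0.00142) and *Amn* 3.16-fold (log2 −1.66, SE 0.446, edgeR adjusted p = 0.00274). The *Amn* change lay between −2.23 and −1.25 when 1 library was left out. *Gata4* was 1.46-fold higher in NB2i (log2 0.55, SE 0.181, edgeR adjusted p = 0.0123), under the fold threshold. *Cubn*, *Foxq1*, *Sox7* and *Hnf4a* did not pass, with log2 differences of 0.28, −0.17, 0.43 and −0.72. All 15 fibroblast markers were lower in NB2i, with a median log2 change of −6.32, and their part in the 4 lower genes was not tested.

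NB2i and −F were both grown without feeders and differ in 2i, serum and medium. Of the 9 genes, 5 were lower and 2 higher in NB2i, against 16.1% lower and 11.1% higher among all genes. The median log2 change of the 9 was −1.83, against 0.01 over all genes. *Dab2* fell 12.7-fold (SE 0.182 on the log2 scale, edgeR adjusted p = 6.38e-14), *Amn* 11.3-fold (SE 0.338, edgeR adjusted p = 5.40e-09) and *Cubn* 8.48-fold (SE 0.273, edgeR adjusted p = 1.32e-09). *Gata6* fell 3.96-fold (log2 −1.99, SE 0.316, edgeR adjusted p = 8.71e-06) and *Foxq1* 3.55-fold (log2 −1.83, SE 0.345, edgeR adjusted p = 6.90e-05). *Sox7* rose 2.07-fold (log2 1.05, SE 0.284, edgeR adjusted p = 0.00231), and its log2 change was 0.89 without −F replicate 1 and 0.92 without NB2i replicate 1, both under the fold threshold. *Hnf4a* had 27 reads in NB2i against 3 in −F, a ratio of 8.93 with a 95% exact counting interval from 2.75 to 46.0. Because *Hnf4a* passed the filter through the groups in which it was high, its place among the higher genes of NB2i and of F2i against −F is a description and supports nothing. *Gata4* and *Sox17* did not pass (log2 differences 0.12 and −0.72, edgeR adjusted p = 0.549 and 0.227). Of the 15 fibroblast markers, 9 were lower and 1, *Pdgfrb*, was higher in NB2i, and their sum was at most 15.6 FPKM in any of these 4 samples.

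The other pairs of conditions complete the order of levels. In NB2i against F, where feeders, serum and 2i all differ, 6 of the 9 were lower and 0 higher, against 17.6% and 10% of all genes. *Cubn* was 45.7-fold and *Dab2* 31.8-fold lower there, and *Gata4* 1.77-fold lower (log2 −0.83, SE 0.151, edgeR adjusted p = 4.92e-05). Of the 6, *Sox17*, *Foxq1* and *Amn* had under 10 reads in both NB2i samples and reached 10 in this pair only in F. Their place in that count is therefore a description. In F2i against −F, 3 of the 9 were lower and 2 higher, against 9.82% and 11.7% of all genes, and the median log2 change of the 9 was 0.02. The 3 lower genes were *Cubn* (10.3-fold), *Amn* (3.58-fold) and *Foxq1* (3.16-fold). The log2 change of *Cubn* was −4.12 without F2i replicate 1 and −2.87 without F2i replicate 2. The 2 higher genes were *Hnf4a*, with 44 reads against 3 and a ratio of 14.8 (95% exact counting interval 4.75 to 74.5), and *Sox17* (2.15-fold, edgeR adjusted p = 0.0194). The *Sox17* call was lost in DESeq2 (adjusted p = 0.134), without −F replicate 2 (edgeR adjusted p = 0.119) and without F2i replicate 1 (edgeR adjusted p = 0.0693).

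**Figure D3:**
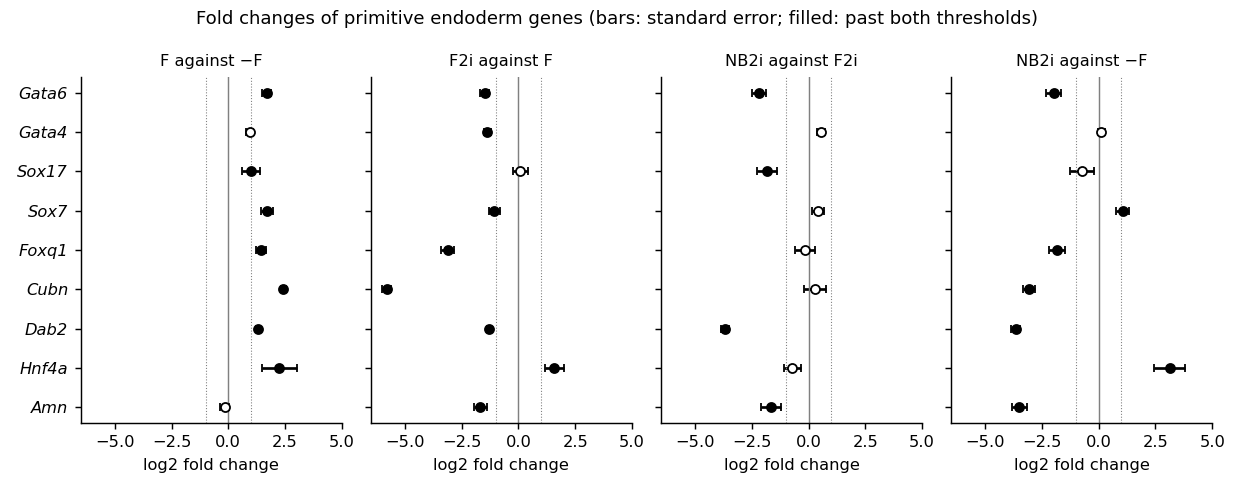
Log2 fold changes (x axis) of the 9 genes (y axis) in 4 comparisons, from edgeR; bars are 1 standard error, dotted lines mark a 2-fold change, and filled points passed both thresholds. *Dab2* is near −3.7 in both comparisons of NB2i, whereas *Cubn* is at −5.80 in F2i against F and near 0 in NB2i against F2i.

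Whether the change with 2i on feeders, F2i against F, differed from the change off feeders, NB2i against −F, was tested as the difference of the log2 changes of these comparisons, which share no sample. The feeder-free pair also differs in serum and medium. Summed fibroblast markers rose from 223 and 234.6 FPKM in F to 593.5 and 582.1 in F2i, and were at most 15.6 in −F and NB2i. The part of feeder RNA in the difference was not tested. The difference passed the thresholds for 6 of the 9 genes, against 16.5% of all genes. *Cubn* (−2.71, SE 0.515, edgeR adjusted p = 1.66e-04), *Sox7* (−2.12, SE 0.372, edgeR adjusted p = 6.91e-05) and *Gata4* (−1.49, SE 0.237, edgeR adjusted p = 2.19e-05) had a lower change on feeders. That of *Cubn* lay between −3.47 and −2.21 when 1 library was left out. *Dab2* (2.36, SE 0.227, edgeR adjusted p = 2.08e-08) and *Amn* (1.83, SE 0.494, edgeR adjusted p = 0.00413) fell less on feeders. *Foxq1* passed narrowly (−1.29, SE 0.512, edgeR adjusted p = 0.0426) and was lost in DESeq2 (adjusted p = 0.145), without the filter and without any 1 of the libraries other than F replicate 1. *Gata6*, *Sox17* and *Hnf4a* did not pass, with differences of 0.50, 0.81 and −1.54. *Cubn* had 12 and 5 reads in F2i and 10 and 11 in NB2i, and *Foxq1* 9 and 11 in F2i and 9 and 9 in NB2i. Since both genes were near the floor in both groups with 2i, their differences largely restate F against −F (log2 2.43 and 1.46). That of *Sox7* also largely restates F against −F (log2 1.69), as no test separated NB2i from F2i (log2 difference 0.43, edgeR adjusted p = 0.159). That of *Amn* largely restates NB2i against F2i (log2 −1.66), as no test separated F from −F (log2 difference −0.17, edgeR adjusted p = 0.559).

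Partners of the same complex or pathway had unlike levels. The ratio of *Cubn* to *Amn* FPKM was 0.183 and 0.200 in −F, 1.05 and 1.28 in F, 0.0847 and 0.0385 in F2i and 0.364 and 0.217 in NB2i. No 2 groups overlapped in this ratio, and receptor and partner were near parity only in F. The ratios with 2i rest on few reads, *Cubn* 12 and 5 over *Amn* 20 and 18 in F2i. In NB2i they were *Cubn* 10 and 11 over *Amn* 4 and 8, so the gap between −F and NB2i is not read. The ratio of *Gata6* to *Gata4* FPKM was 0.332 and 0.382 in −F, 0.656 and 0.530 in F, 0.528 and 0.558 in F2i and 0.105 and 0.0625 in NB2i. Here F and F2i overlapped and NB2i was the lowest. Against −F, *Gata6* was 3.96-fold lower in NB2i and *Gata4* did not pass, whereas against F *Gata4* was 1.77-fold lower, under the fold threshold. These ratios are given without a test.

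**Figure D4:**
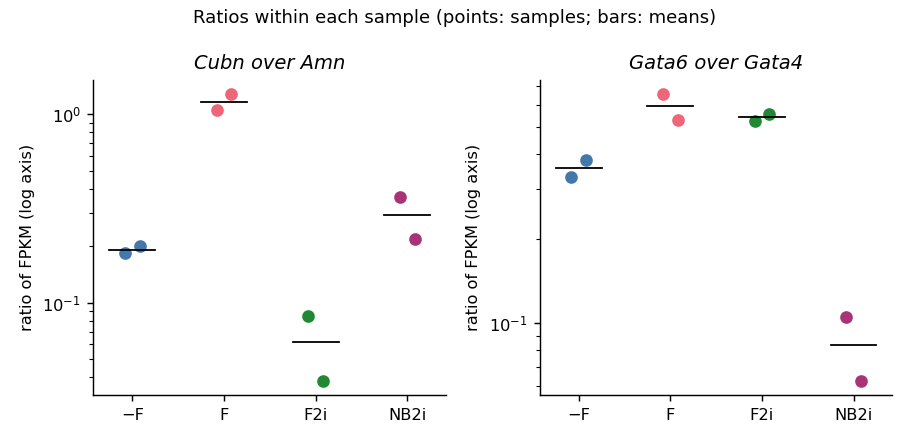
Ratio of FPKM within each sample (y axis, log scale) for *Cubn* over *Amn* and *Gata6* over *Gata4* in 4 conditions (x axis); points are samples and bars means. The first ratio is 1.05 and 1.28 in F and below 0.4 in the other 6 samples, and the second is lowest in NB2i at 0.105 and 0.0625.

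Other genes of the lineage moved in both directions. For comparison with each list, the shares of all genes called higher and lower were 5.59% and 1.65% in F against −F, 6.44% and 7% in F2i against F, 6.01% and 13.3% in NB2i against F2i, and 11.1% and 16.1% in NB2i against −F. In lists this short, a count of 1 or 2 is near these shares and is not read. In a list of 18 further early primitive endoderm genes, 5 were higher and 2 lower in F against −F, with a median log2 change of 0.58. In F2i against F, 2 were higher and 5 lower, in NB2i against F2i 1 and 7, and in NB2i against −F 5 and 8. The most abundant were matrix genes that ESCs and fibroblasts also express. *Sparc*, a matrix glycoprotein, measured 99.2 and 95.1 FPKM in −F, 160 and 161 in F, 450 and 463 in F2i and 456 and 457 in NB2i. It was higher in both groups with 2i than in −F and F, while NB2i and F2i were not separated (log2 difference 0.01, edgeR adjusted p = 0.886). *Lamc1*, a laminin chain, rose 1.26 on the log2 scale in NB2i against −F (SE 0.0439, edgeR adjusted p = 1.15e-16). *Serpinh1*, a collagen chaperone, changed by less than 2-fold in each of the 4 main comparisons. *Cldn6*, a tight junction protein, was highest in −F at 105 and 101 FPKM and fell to 6.44 and 7.18 in F2i. *Pdgfra*, a receptor tyrosine kinase of primitive endoderm that fibroblasts also carry, is named after its values were seen. It measured 0.25 and 0.21 FPKM in −F, 1.37 and 1.22 in F, 0.67 and 0.55 in F2i and 0.31 and 0.27 in NB2i, and so was highest in F.

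Of 19 visceral endoderm genes, 11 had enough reads to test. Of these 3 were higher and 0 lower in F against −F, 1 and 2 in F2i against F, 0 and 5 in NB2i against F2i, and 1 and 4 in NB2i against −F. *Apoe*, a lipid carrier that ESCs make in quantity, dominated the list at 497 to 1025 FPKM and was highest in NB2i. *Apoa2*, another apolipoprotein, fell by 1.47 on the log2 scale in F2i against F (SE 0.0965, edgeR adjusted p = 2.41e-11). *Trf*, transferrin, measured 3.36 to 4.38 FPKM in serum without 2i and 1.70 to 1.99 FPKM with 2i. *Hhex*, a homeobox factor of the anterior visceral endoderm, stayed between 4.30 and 5.96 FPKM.

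Of 15 parietal endoderm genes, 6 were higher and 1 lower in F against −F, 2 and 2 in F2i against F, 1 and 6 in NB2i against F2i, and 7 and 5 in NB2i against −F. *Sparc* and *Lamc1* are also on this list. *Vim*, an intermediate filament that is abundant in fibroblasts, measured 19.8 and 16.0 FPKM in −F, 137 and 139 in F, 181 and 185 in F2i and 58.4 and 60.2 in NB2i. *Nid1*, a basement membrane protein, rose from 17.0 and 16.2 FPKM in −F to 107 and 104 in NB2i, where fibroblast markers were lowest.

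Of 12 partners of the uptake complex, 1 was higher and 0 lower in F against −F, 0 and 1 in F2i against F, and 0 and 2 in each of NB2i against F2i and NB2i against −F. The abundant clathrin chains *Clta* and *Cltc*, the adaptor subunit *Ap2a1* and the megalin-binding protein *Gipc1* passed in none of these. *Lrp2*, which encodes megalin, is named after its values were seen. It measured 6.05 and 5.46 FPKM in −F, 3.61 and 3.98 in F, 1.30 and 1.10 in F2i and 0.27 and 0.22 in NB2i. *Lrp2* was highest in −F and lower in each of F, F2i and NB2i in turn, by 4.50 on the log2 scale from −F to NB2i (SE 0.106, edgeR adjusted p = 1.57e-19).

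In the GATA family of 6, *Gata2*, best known in blood and trophoblast, had the highest mean over all samples, although *Gata4* was above it in F. It measured 2.18 and 1.89 FPKM in −F, 2.26 and 2.11 in F, 3.50 and 3.32 in F2i and 10 and 8.97 in NB2i. It did not pass in F against −F (log2 difference 0.12, edgeR adjusted p = 0.454) and rose from F2i to NB2i, where *Gata6* fell. *Gata3*, a trophoblast factor, fell by 3.57 on the log2 scale from F2i to NB2i (SE 0.257, edgeR adjusted p = 8.10e-11). *Sox18*, a SOX F member that is also on the list of endothelial markers, was lower in F at 0.67 and 0.39 FPKM. In −F it stood at 1.40 and 1.46 FPKM, the opposite direction to *Sox7* and *Sox17*. Endothelial markers as a list were split, with 2 higher and 2 lower of 5 tested in F against −F. Of 6 definitive endoderm and mesendoderm markers, 1 was higher and 0 lower in F against −F. Of 5 GATA cofactors, *Zfpm2* was higher and *Tal1* lower in the same comparison.

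The inputs of the pathway were compared with its readouts. Of 13 FGF and ERK pathway genes, 0 passed in either direction in F against −F. In F2i against F 2 were lower, *Fgfr2* and *Fgfr3*, and these with *Fgfr4* were lower in NB2i against −F. *Fgf4*, the ligand, stayed between 78.6 and 117 FPKM. *Map2k1*, which encodes a MEK, stayed between 56.8 and 68.3 FPKM and *Grb2*, an adaptor of FGF receptors, between 42.6 and 49.4 FPKM. Of 8 genes that ERK signalling induces, 1 was higher in F against −F, *Egr1*, and 5 were lower in F2i against F, with a median log2 change of −2.42. *Egr1* measured 8.58 and 8.36 FPKM in −F, 90.4 and 94.1 in F, 4.0 and 3.54 in F2i and 1.58 and 1.62 in NB2i. *Egr1* is also an early response gene of handling and serum. *Etv4* did not differ between F and −F past the thresholds (log2 difference 0.02, SE 0.0451, edgeR adjusted p = 0.780) and fell by 3.18 on the log2 scale in F2i against F. *Etv5* and *Spry2* passed in none of the 4 main comparisons.

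Among 10 epiblast genes, 3 were higher and 0 lower in F against −F and likewise in F2i against F. *Nanog*, whose product opposes *Gata6*, was 0.45 higher on the log2 scale in F than in −F (SE 0.0409, edgeR adjusted p = 1.48e-08) and 0.85 higher in F2i than in F (SE 0.0405, edgeR adjusted p = 1.17e-13), both under 2-fold. *Nanog* and *Gata6* were thus both higher in F than in −F, whereas in F2i *Nanog* was higher and *Gata6* lower than in F. In NB2i against F2i both were lower (log2 −0.66 and −2.18). In NB2i against −F *Nanog* was higher (log2 0.64, under 2-fold) and *Gata6* lower (log2 −1.99).

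The genes most like each of the 9 over the 8 samples were ranked by Pearson's r of log2(FPKM + 0.1) among 6560 genes that varied by at least 1 on that scale. The 8 points are 4 pairs of replicates, so r is a description and has no p. Among the 9 themselves, 17 of 36 pairs had r over 0.5 and 7 had r below 0. *Foxq1* and *Cubn* were most alike with r = 0.990, followed by *Gata6* and *Dab2* with r = 0.959, and *Hnf4a* and *Amn* were least alike with r = −0.688. The gene nearest to *Gata6* was *Dll1*, a Notch ligand, with r = 0.994 and levels of 1.38 and 1.21 FPKM in −F, 9.25 and 8.93 in F, 1.99 and 1.74 in F2i and 0.15 and 0.14 in NB2i. *Bhlhe40* (r = 0.992) and *Lgr6* (r = 0.990) came next. *Mast4* was nearest to both *Foxq1* and *Cubn* (r = 0.993 and 0.991), and *Wnt8a*, a WNT ligand, was the third for both (r = 0.985 and 0.983).

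*Dab2* was closest to *Mex3c* (r = 0.998), *Actl7b* (r = 0.997) and the chemokine gene *Cxcl12* (r = 0.995). *Cxcl12* measured 2.02 and 2.32 FPKM in −F, 4.71 and 4.20 in F, 1.56 and 1.87 in F2i and 0.16 and 0.16 in NB2i. *Amn* was closest to *Cnih2* (r = 0.995), *Adgrb2* and *Mlf1* (both r = 0.994). *Hnf4a* was closest to *Cast*, the calpain inhibitor (r = 0.993), *Rgcc* (r = 0.986) and *Irak2* (r = 0.981). *Sox17* was closest to *Rgs4* (r = 0.989), *Fam46a* (r = 0.979) and *Cnrip1* (r = 0.973). *Gata4* and *Sox7* had no match as close. Their nearest genes were *Csrnp3* (r = 0.890), *Pga5* (r = 0.887) and *Tmc3* (r = 0.881) for *Gata4*, and *Srgn* (r = 0.919), *Gm12359* (r = 0.906) and *Ly6g5b* (r = 0.894) for *Sox7*. Many of these genes fell below the range criterion with a pseudocount of 1, where *Dll1* still ranked first for *Gata6*.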

How the data were processed

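Poly-A RNA of 8 samples in 4 groups was sequenced by the authors on a BGISEQ-500 (single-end, 50 bases), aligned to mm10 by Bowtie2 and quantified by RSEM. The deposited files give an expected count, an estimate of a gene's reads that is not normalized and was not whole for 29.8% of values, and the authors' FPKM. Files list only genes above 0, and a gene missing from a file was taken as 0.

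After rounding, the expected counts went into edgeR 4.0.16 (R 4.3.3), with TMM scaling, 1 factor for the group, and quasi-likelihood tests by glmQLFit and glmQLFTest over the 8 samples together. The filter asked for 10 counts or more in at least 2 samples, which 15287 of 20278 genes passed, all 9 genes among them. Adjustment was by Benjamini and Hochberg's procedure across all genes tested in a comparison, and a call needed an adjusted p under 0.05 and a fold of at least 2. SE was taken from the log2 fold change and its F statistic. Counting intervals of *Hnf4a* are exact (Clopper-Pearson) and cover counting error only. The scripts were tested on simulated data.

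Nothing shows that replicates, which the design text calls biological duplicates, came from separate cultures, so p-values measure the spread between these samples. The biological coefficient of variation was 3.254%, and the p-values rest on the model, since an exact permutation test of 2 against 2 cannot go below 0.3333. Within groups, chi-square per degree of freedom was 1.89 to 3.71, above repeated sequencing of 1 library, so no pair was counted as 1 sample. Samples with the same replicate number did not deviate together (mean r = −0.0423 over 6 pairs of groups).

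The fits were repeated with DESeq2 1.42.0, with its size factors in edgeR, without the filter, with 10 counts asked of every sample, on only the 2 groups of a comparison, with a replicate block, and with each sample left out. Limma 3.58.1 was run on log2 of FPKM plus 0.1 or plus 1 for genes of 0.5 FPKM or more in 2 samples. A crossed block was added after seeing the data. All 9 genes are described. From each list, genes are named by highest mean FPKM, up to 4, and others are said to be named after their values were seen or are the few that passed. A gene that this rule would name is not reported here. The genes and lists were chosen with earlier results of these data known. Gene coordinates are from GENCODE M21 and promoter windows from RefSeq.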

Additional observations from a re-analysis of the deposited data

Results flagged for a closer look

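The change with 2i on feeders (F2i against F) differed from the change with 2i off feeders (NB2i against −F) for 6 genes, by edgeR's test of the difference itself. The difference in log2 fold change was −1.49 for *Gata4*, −2.12 for *Sox7*, −1.29 for *Foxq1*, −2.71 for *Cubn*, 2.36 for *Dab2* and 1.83 for *Amn*. *Gata4* and *Sox7* fell with 2i on feeders (log2 −1.37 and −1.07). Off feeders *Gata4* did not pass (log2 difference 0.12) and *Sox7* rose (log2 1.05). The *Sox7* fall was −0.72 without F2i replicate 2 and its rise 0.89 without −F replicate 1, both under the fold threshold. *Cubn* fell in both, and its difference lay between −3.47 and −2.21 when 1 library was left out. *Foxq1* fell in both, and its difference was lost in DESeq2, without the filter and in 7 of 8 fits that left out 1 library. *Cubn* and *Foxq1* were near the floor in both groups with 2i, so their differences largely restate F against −F. The difference of *Sox7* also largely restates F against −F, and that of *Amn* NB2i against F2i. *Dab2* and *Amn* also fell in both, by more off feeders. Serum and basal medium differ in the feeder-free pair only, so their part cannot be told apart from that of feeders. Fibroblast markers were also higher in F2i than in F, and the part of feeder RNA was not tested.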

How the results depend on the processing

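Of 926 values of the 9 genes under an alternative, 860 kept their direction and their side of the thresholds, 54 kept the direction and no longer passed, 2 newly passed and 10 changed sign. With at least 10 counts required in every sample, 12730 genes and 3 of the 9 (*Gata4*, *Sox7* and *Dab2*) could be tested. Taking the comparisons in the order F against −F, F2i against F, NB2i against F2i, NB2i against −F, NB2i against F, F2i against −F and the difference of changes, 2, 3, 1, 2, 1, 0 and 3 of the 9 were then called, and 393, 1110, 1513, 2597, 2430, 1853 and 1545 genes, against 1107, 2055, 2956, 4152, 4218, 3287 and 2522 in the fit reported. With limma on log2(FPKM + 1), where low genes can hardly reach 2-fold, 309, 731, 1094, 1982, 1907, 1452 and 1022 genes were called, and 2, 3, 1 and 2 of the 9 in the first 4 comparisons, 0 in F2i against −F and 1 in the difference. On log2(FPKM + 0.1), 3 were called in F2i against −F. Both limma fits tested 7 of the 9, without *Sox17* and *Hnf4a*, the genes called higher in F2i against −F.

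Signs turned for differences that no test called. Leaving out 1 library moved *Amn* in F against −F between −0.41 and 0.12, *Sox17* in F2i against F between −0.18 and 0.43, *Cubn* in NB2i against F2i between −0.22 and 1.04, *Gata4* in NB2i against −F between −0.19 and 0.49, and in F2i against −F *Gata6* between −0.023 and 0.45 and *Dab2* between −0.0029 and 0.050. *Dab2* there was −0.091 and −0.063 with limma on log2(FPKM + 0.1) and log2(FPKM + 1), and the *Gata6* difference of changes was −0.33 on the latter. The cause was not tested. Leaving out 1 library gave 5 to 8 of the 9 called in F against −F, 7 to 8 in F2i against F, 4 in NB2i against F2i, 6 to 7 in NB2i against −F, 6 in NB2i against F, 4 to 5 in F2i against −F and 5 to 6 in the difference.

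The labels use the same replicate numbers in every group, but these did not pair the samples (r from −0.189 to 0.0853 between groups). With the replicate block, 6 of the 9 and 1092 genes were called in F against −F, *Sox17* being lost (log2 1.01, edgeR adjusted p = 0.0615), and the block changed no other count of the 9. With the −F numbers crossed, 6 of the 9 and 1095 genes were called. Levels that rest on under about 10 reads a sample are less certain, as for *Sox17* and *Hnf4a*. The same holds for *Amn* in NB2i (4 and 8 reads) and *Cubn* in F2i replicate 2 (5 reads). It also holds for *Foxq1* in NB2i (9 and 9 reads) and *Gata6* in NB2i replicate 2 (8 reads).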
